A study of Homo sapiens with 12 samples.

Results

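Ferritin, iron uptake and iron-regulatory genes were followed in OCI-AML3 cells, a long-established line from a human acute myeloid leukaemia, under SA and under a guide RNA against ALAS1. The group was a list of 10 genes given by symbol: FTH1, FTL, TFRC, SLC11A1, SLC11A2, SLC39A14, IREB2, ACO1, NCOA4 and STEAP3. For each symbol the Ensembl identifier with most reads was taken, which gave 9 of the 10 genes among the 57905 identifiers of the count table. The identifier paired with NCOA4 in the gene tables matched no row, so NCOA4, the cargo receptor that carries ferritin to lysosomes, was not analysed here. The list of symbols was chosen with earlier results of these data known.

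There were 12 libraries in 4 groups of 3. The drug arm compared 6 days of SA, at 500 µM, with 6 days of its vehicle. The guide arm compared cells carrying a guide RNA to ALAS1, named sgALAS1, with cells carrying a scrambled one, named sgSCR. Guide expression in both was induced by doxycycline over 7 days. The labels do not spell out SA, an abbreviation used in heme research for succinylacetone, an inhibitor of the second enzyme of heme synthesis. ALAS1 encodes the first and rate-limiting enzyme. The 2 control groups therefore differed from each other in guide, doxycycline and days. The labels do not say whether the cells with a guide were a pool or 1 clone, nor whether the libraries of a group came from separate cultures. The p-values measure the spread between these libraries, which may be technical.

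Iron enters most cells bound to transferrin through the transferrin receptor TFRC, is reduced in endosomes by STEAP3 and crosses into the cytosol through SLC11A2 (DMT1). Iron that is not used is stored in ferritin, a shell of heavy (FTH1) and light (FTL) subunits. When iron is scarce, the iron-regulatory proteins ACO1 (IRP1) and IREB2 (IRP2) bind hairpins called iron-responsive elements. Binding near the start of an mRNA blocks its translation, as for ferritin, and binding in the 3′ untranslated region protects the mRNA from decay, as for TFRC.

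The elements are shown because they set apart the ferritin mRNAs from TFRC within the group. The core was searched as the loop CAGTGN, spelled out as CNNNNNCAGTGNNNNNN, or the variant loop CAGAGN, spelled out as CNNNNNCAGAGNNNNNN, on the transcript strand only, with all 5 bases on each side of the 6-base loop required to pair. One GENCODE 29 transcript was read per gene for all 10 genes. The sequences below are given 5′ to 3′ in DNA letters with the loop in capitals, 27 bases each, from the 5′ untranslated regions of FTH1 (GRCh38, chr11:61967575-61967601, minus strand) and FTL (chr19:48965336-48965362, plus strand).
FTH1: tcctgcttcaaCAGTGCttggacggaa
FTL: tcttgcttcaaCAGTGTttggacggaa
The pair was identical at 25 of 27 bases. A CAGTGN core lay in the 5′ untranslated region of 0.108% of 19469 transcripts.

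TFRC carried 5 cores in its 3′ untranslated region on chromosome 3 (minus strand), spread over 566 bases: 4 with the loop CAGTGN and 1 with CAGAGN. They lie at chr3:196051030-196051056, 196050980-196051006, 196050576-196050602, 196050511-196050537 and 196050464-196050490, in the order printed.
TFRC 1: tttatcagtgaCAGAGTtcactataaa
TFRC 2: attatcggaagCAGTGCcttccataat
TFRC 3: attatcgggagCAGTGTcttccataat
TFRC 4: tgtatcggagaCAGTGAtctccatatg
TFRC 5: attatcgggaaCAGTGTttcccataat
A CAGTGN core was found in the 3′ untranslated region of 0.539% of transcripts and a CAGAGN core in 0.498%. STEAP3 held 1 match to the variant loop in its 3′ untranslated region (chr2:119263772-119263798, plus strand, caaggctcttgCAGAGCtagggctctg). The transcripts read for ACO1, IREB2, NCOA4, SLC11A1, SLC11A2 and SLC39A14 held no match with these letters. The same search gave no match in EPAS1, whose mRNA carries a known element. A gene without a match may therefore still carry an element, in this or another transcript. A match is a description of the sequence, and the libraries count mRNA 3′ ends, so translation through these elements was not measured.

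Library totals lay between 4658513 and 7339843 reads, with a median of 5573540. Levels are given as CPM, reads relative to the size of the TMM-scaled library. Each of the 4 comparisons was tested with edgeR's quasi-likelihood test in a single fit of all 12 libraries, with Benjamini-Hochberg adjustment over 13832 tested genes and a threshold of 0.05. All 9 measured genes were among those tested. Of the myeloid markers SPI1 stood at 102 CPM, CEBPA at 345, FLT3 at 44.7 and MPO at 3.499 in vehicle. KIT had no read. Of 8 tested genes of that list 1 rose and 1 fell in SA, beside 4.83% and 6.24% of all tested genes. With sgALAS1 2 rose and 1 fell, beside 4.88% and 6.85%. The gene that fell was FLT3 in both arms (log2 change -1.504 in SA and -2.923 with the guide). Of the erythroid markers HBA1, HBA2, HBB and HBG1 had no read in any library. HBG2 had 17 reads and ALAS2 24 over all libraries. EPOR, the 1 tested erythroid marker, averaged 5.53 CPM in vehicle, 5.31 in SA, 7.09 in sgSCR and 11.4 in sgALAS1. EPOR passed in neither arm. The summed level of 6 monocyte and granulocyte markers, most of it lysozyme (LYZ), was 539 to 685 CPM in vehicle and 1625 to 1906 CPM in SA. It was 328 to 397 CPM in sgSCR and 1078 to 1236 CPM in sgALAS1. Of these markers S100A8, S100A9, LYZ and CD14 rose in both arms. FCN1 rose in SA and changed by -0.34 with the guide, which did not pass, and ITGAM passed in neither arm. The part of these markers in the results below was not tested. The summed level of 5 lymphoid markers, nearly all of it CD3D, was 12.5 to 15.9 CPM in vehicle, 4.66 to 5.78 CPM in sgSCR and at most 1.99 CPM in SA and sgALAS1. CD3E had no read. NCAM1, a marker of natural killer cells that some myeloid leukaemias also carry, was not part of that sum: it averaged 101 CPM in vehicle, 110.3 in SA, 83.4 in sgSCR and 134 in sgALAS1, and rose with the guide by 0.68 (edgeR adjusted p = 0.000253). The summed level of 6 epithelial and stromal markers was 7.45 to 9.91 CPM in vehicle, 2.53 to 6.76 in SA, 2.39 to 3.86 in sgSCR and 2.88 to 5.63 in sgALAS1, and the part of these markers was not tested either.

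The targeted gene was examined first. ALAS1 was at 38.6, 42.0 and 37.4 CPM in the sgSCR libraries and at 26.2, 26.3 and 27.3 CPM in the sgALAS1 libraries. All sgALAS1 libraries were below all sgSCR libraries (log2 fold change -0.56, SE 0.14, edgeR adjusted p = 0.00777). Without sgSCR replicate 2 the edgeR adjusted p was 0.0503, and against vehicle the change was -0.40 (edgeR adjusted p = 0.0589). Reads at the mRNA's 3′ end do not show whether the gene was cut. In the drug arm ALAS1 was at 37.5, 36.4 and 31.1 CPM in vehicle and at 106, 102 and 111 CPM in SA. It rose by 1.60 on the log2 scale (SE 0.14, edgeR adjusted p = 1.36e-09).

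Both ferritin subunits rose in both arms. Of the 9 measured genes, 3 passed the test for SA against vehicle, where 11.1% of all tested genes did. FTH1 and FTL rose, as did 4.83% of all tested genes, and the zinc and iron importer SLC39A14 fell, as did 6.24%. For sgALAS1 against sgSCR 3 passed as well, where 11.7% of all tested genes did. FTH1 and FTL rose, as did 4.88% of all tested genes, and SLC11A1 fell, as did 6.85%. The median change of the 9 genes was -0.0033 on the log2 scale for SA and -0.10 for the guide, beside -0.0095 and -0.0034 for all tested genes. For the difference between the arms 0 of 9 passed with edgeR and 0 with DESeq2, where 1.19% of all tested genes did with edgeR, and 2 had an unadjusted p under 0.05.

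FTH1 (ENSG00000167996, chromosome 11), the heavy subunit that oxidises iron as it enters the shell, had 562, 564 and 497 CPM in vehicle and 1012, 1036 and 995 CPM in SA. Every SA library lay above every vehicle library. The rise was 0.91 on the log2 scale (SE 0.10, edgeR adjusted p = 1.88e-07). In these bulk samples a change in the share of a cell type and a change in RNA per cell cannot be told apart.

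In the guide arm FTH1 had 571, 545 and 527 CPM with sgSCR and 989.7, 998 and 1019 CPM with sgALAS1, again with no overlap. The rise was 0.87 on the log2 scale (SE 0.10, edgeR adjusted p = 1.52e-07). The effects of the guide and of SA differed by -0.04 (SE 0.14, edgeR adjusted p = 0.951). The 2 control groups overlapped for FTH1 and differed by 0.02 (edgeR adjusted p = 0.971). FTH1 was thus near 540.9 to 548 CPM on average in both control groups and near 1002 to 1014 CPM in both treated groups.

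The FTH1 count has a limit set by the gene map. FTH1 overlaps BEST1, a chloride channel gene on the opposite strand, by 5798 bases in the GENCODE 29 models. The BEST1 row held 52791 reads over all libraries and the FTH1 row 52718, and in no library did the pair differ by more than 19 reads. Reads of these 2 genes therefore cannot be told apart in the table. FTH1 pseudogenes, mostly processed copies, can draw reads from the parent. Of 25 identifiers 11 held reads, 276 in all, or 0.524% of the FTH1 reads. FTH1P10 held 251 of them. The handling of multiply mapped reads is not given, so these counts cannot show how many reads FTH1 lost to such copies.

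FTL (ENSG00000087086, chromosome 19), the light subunit that helps iron to mineralise, had 1382, 1169.6 and 1225 CPM in vehicle and 2038, 2201 and 2267 CPM in SA. The groups did not overlap. FTL rose by 0.78 on the log2 scale (SE 0.10, edgeR adjusted p = 4.42e-06).

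In the guide arm FTL had 2052, 1872 and 1591 CPM with sgSCR and 2529, 2457 and 2524 CPM with sgALAS1. The groups did not overlap, and the rise was 0.45 (SE 0.10, edgeR adjusted p = 0.00383). The scrambled guide libraries, however, started above vehicle. FTL rose by 0.55 in sgSCR against vehicle (SE 0.10, edgeR adjusted p = 0.00316), and it was the 1 gene of the 9 that passed there, where 1.43% of all tested genes did and 0.47% rose. That comparison shares its libraries with both others. Without sgSCR replicate 1, the highest of its group, the control difference was 0.46 (edgeR adjusted p = 0.0536).

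The size of the FTL change therefore depended on the control. Against sgSCR, a comparison added after seeing the data, the change in SA was 0.24 (edgeR adjusted p = 0.136), and against vehicle the change in sgALAS1 was 0.99 (edgeR adjusted p = 3.34e-08). For FTH1 the same exchange of controls gave 0.89 for SA and 0.89 for the guide. The guide effect on FTL was 0.34 below the SA effect on the log2 scale (difference -0.34, SE 0.15, unadjusted p = 0.0288, edgeR adjusted p = 0.342), which did not pass. Reads of 16 FTL pseudogene identifiers came to 93 in all, 0.0703% of the FTL reads.

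**Figure D1:**
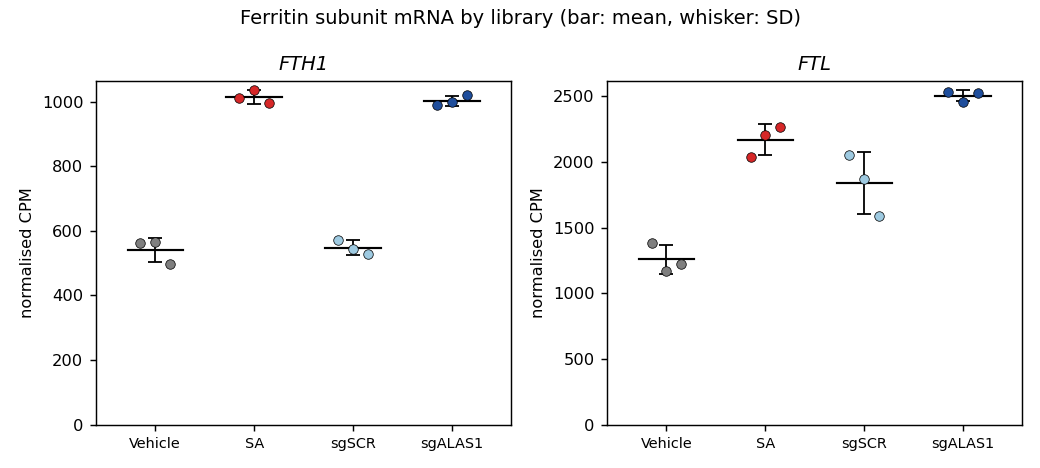
TMM-scaled counts (CPM, linear axis) of FTH1 and FTL in the 12 libraries, 3 per group; points are libraries, bars the group mean and whiskers the SD. FTH1 lies between 989.7 and 1036 CPM in the SA and sgALAS1 libraries and between 497 and 571 CPM in the control libraries, while for FTL every sgSCR library lies between the vehicle and the sgALAS1 libraries.

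Within a library the ratio of FTL to FTH1 reads does not depend on the scaling between libraries. It was 2.07 to 2.46 in vehicle and 2.01 to 2.28 in SA, which overlapped. It was 3.02 to 3.59 in sgSCR and 2.46 to 2.56 in sgALAS1, which did not overlap. The sgSCR libraries had the highest ratios of all 12. Together FTH1 and FTL took 0.181 to 0.192% of all reads in vehicle and 0.298 to 0.327% in SA, and 0.214 to 0.259% in sgSCR and 0.343 to 0.346% in sgALAS1.

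**Figure D2:**
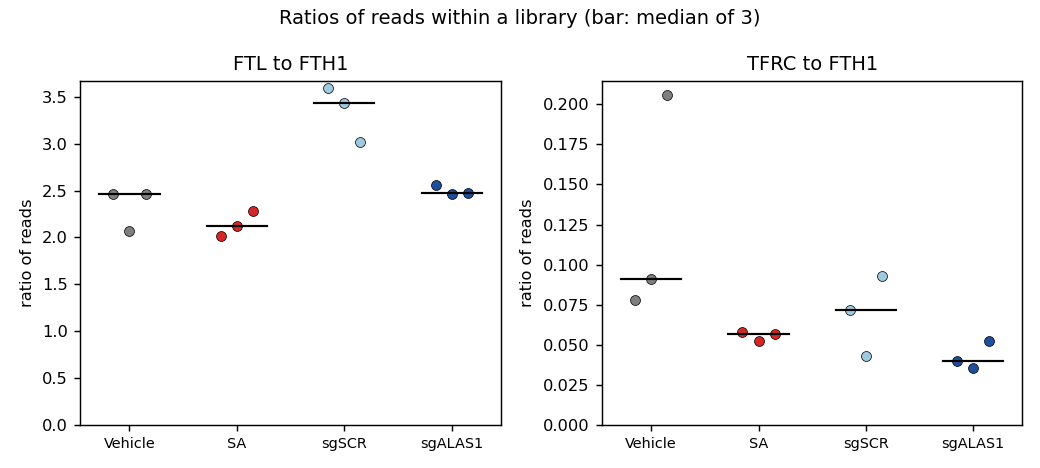
Ratio of reads of FTL to FTH1 (left) and of TFRC to FTH1 (right) in each of the 12 libraries; points are libraries and bars the median of 3. The 3 sgSCR libraries have the highest ratios of FTL to FTH1, and vehicle replicate 3 has a TFRC to FTH1 ratio of 0.206, above all others.

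TFRC (ENSG00000072274, chromosome 3), the receptor for iron-loaded transferrin, passed no test. It had 43.6, 51.3 and 102 CPM in vehicle and 58.7, 54.3 and 56.4 CPM in SA. Vehicle replicate 3 stood apart from the other vehicle libraries, and the groups overlapped. The change was -0.21 (SE 0.23, edgeR adjusted p = 0.63), and without that library it was 0.26 (edgeR adjusted p = 0.547).

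In the guide arm TFRC had 41.0, 23.3 and 48.9 CPM with sgSCR and 39.5, 35.4 and 53.2 CPM with sgALAS1. The groups overlapped, with a change of 0.17 (SE 0.24, edgeR adjusted p = 0.725) that was -0.07 without sgSCR replicate 2, the lowest library. The control groups differed by -0.80 (SE 0.24, edgeR adjusted p = 0.0951). That value moved with single libraries: it was -0.33 (edgeR adjusted p = 0.675) without vehicle replicate 3, -1.03 (edgeR adjusted p = 0.0105) without vehicle replicate 1 and -1.05 (edgeR adjusted p = 0.043) without sgSCR replicate 3.

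The ratio of TFRC to FTH1 reads, a within-library reading of receptor against store, was 0.0776 to 0.206 in vehicle and 0.0524 to 0.0580 in SA. These ranges did not overlap. It was 0.0427 to 0.0928 in sgSCR and 0.0355 to 0.0522 in sgALAS1, which overlapped. Of the pair, FTH1 did not overlap between vehicle and SA and TFRC did.

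STEAP3 (ENSG00000115107, chromosome 2), the endosomal ferrireductase, had 8.28, 9.65 and 8.49 CPM in vehicle and 7.58, 5.77 and 9.57 CPM in SA, which overlapped (change -0.20, SE 0.35, edgeR adjusted p = 0.796). It had 13.9, 10.5 and 7.61 CPM in sgSCR and 9.72, 4.54 and 2.66 CPM in sgALAS1. These groups overlapped through sgALAS1 replicate 1. The change was -0.87 (SE 0.36, edgeR adjusted p = 0.114), and without that library it was -1.54 (edgeR adjusted p = 0.0106).

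SLC11A2 (ENSG00000110911, chromosome 12), the ferrous iron transporter of endosomes, had 9.15 to 14.8 CPM in SA and 11.5 to 12.7 CPM in vehicle, a change of 0.02 (edgeR adjusted p = 0.97). In sgSCR it had 15.3, 17.0 and 12.9 CPM and in sgALAS1 12.2, 11.8 and 11.5 CPM. The sgALAS1 libraries were all lower, but the change of -0.35 (SE 0.23) did not pass (edgeR adjusted p = 0.388).

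SLC11A1 (ENSG00000018280, chromosome 2), also called NRAMP1, moves metal ions out of the phagosome of macrophages and granulocytes. It was the least read gene of the group, with 134 reads over all libraries. The sgSCR libraries held 16, 11 and 25 reads (3.19, 1.77 and 4.13 CPM) and the sgALAS1 libraries 4, 4 and 0 reads (0.617, 0.727 and 0 CPM). All sgALAS1 libraries were lower. SLC11A1 fell by 2.62 on the log2 scale (SE 0.80, edgeR adjusted p = 0.0279), a fitted value that rests on 8 reads in sgALAS1.

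Leaving out 1 library at a time ended the call of SLC11A1 for sgALAS1 replicate 1 (edgeR adjusted p = 0.0706), 2 (0.0508) or 3 (0.113) and for sgSCR replicate 1 (0.0759) or 3 (0.114). In a fit of the guide libraries alone SLC11A1 did not pass the low-count filter and was not tested. In the drug arm the vehicle libraries held 10, 33 and 11 reads and the SA libraries 7, 5 and 8 reads. The SA libraries were lower, by a fitted -1.26 (SE 0.71) that did not pass (edgeR adjusted p = 0.277). The guide and SA effects differed by -1.36 (edgeR adjusted p = 0.673).

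With sgALAS1, SLC11A1 went the other way from most of the myeloid maturation genes among which it is known to be expressed. Of 11 tested genes of that list, 8 rose and 0 fell in SA, and 7 rose and 0 fell with sgALAS1, beside 4.83% and 4.88% of all tested genes that rose. Their median changes were 1.33 and 0.99. The list includes the calcium-binding protein S100A9, which rose by 3.85 (SE 0.20) in SA and by 2.52 (SE 0.21) with sgALAS1, and lysozyme (LYZ), which rose by 1.37 and 1.60.

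SLC39A14 (ENSG00000104635, chromosome 8), also called ZIP14, imports zinc and iron that is not bound to transferrin. It had 38.4, 50.1 and 46.9 CPM in vehicle and 17.1, 31.4 and 18.2 CPM in SA. Every SA library was lower. SLC39A14 fell by 1.02 on the log2 scale (SE 0.23, edgeR adjusted p = 0.00307).

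With sgSCR SLC39A14 had 21.3, 32.6 and 33.4 CPM and with sgALAS1 26.7, 32.7 and 15.96 CPM, which overlapped (change -0.21, SE 0.23, edgeR adjusted p = 0.645). The guide effect exceeded the SA effect by 0.82 (SE 0.33, unadjusted p = 0.018), which did not pass after adjustment (edgeR adjusted p = 0.286). Vehicle was the highest of the 4 groups and did not overlap with sgSCR, although sgSCR against vehicle did not pass (-0.62, SE 0.22, edgeR adjusted p = 0.194). Against sgSCR the change in SA was -0.40 (edgeR adjusted p = 0.279). Against vehicle the change in sgALAS1 was -0.83 (edgeR adjusted p = 0.011). Both exchanges of control were added after seeing the data.

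Of the 470 other tested genes of chromosome 8, 4 rose and 83 fell in SA, and 10 rose and 107 fell with sgALAS1. Their median change was -0.25 in SA and -0.34 with the guide, where the median of all tested genes was -0.0095 and -0.0034. SLC39A14 lay 0.77 below the chromosome's median in SA, and 42 of the 470 genes had a lower log2 change. With the guide it lay 0.14 above the median, and 294 of the 470 genes had a lower log2 change.

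IREB2 (ENSG00000136381, chromosome 15), which encodes the iron-regulatory protein that is degraded when iron is ample, was the steadiest of the group. Its 12 libraries lay between 104 and 129 CPM. It averaged 115 ± 5.04 CPM in vehicle, 115 ± 9.39 in SA, 121 ± 12.5 in sgSCR and 112 ± 4.699 in sgALAS1 (SD, n = 3 each). The change was -0.0033 in SA (SE 0.12, edgeR adjusted p = 0.992) and -0.10 with the guide (SE 0.12, edgeR adjusted p = 0.654).

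ACO1 (ENSG00000122729, chromosome 9) encodes the iron-regulatory protein that becomes an aconitase when it holds an iron-sulfur cluster. It had 16.7, 19.1 and 20.9 CPM in vehicle and 30.5, 20.3 and 23.5 CPM in SA, with overlap between the groups. The change was 0.39 (SE 0.21, edgeR adjusted p = 0.245). With sgSCR it had 16.7, 25.6 and 24.5 CPM and with sgALAS1 30.3, 26.3 and 20.8 CPM, a change of 0.22 (SE 0.21, edgeR adjusted p = 0.575). The ratio of ACO1 to IREB2 reads was 0.139 to 0.190 in vehicle and 0.191 to 0.261 in SA, ranges that did not overlap but came close. It was 0.132 to 0.230 in sgSCR and 0.178 to 0.282 in sgALAS1, which overlapped.

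**Figure D3:**
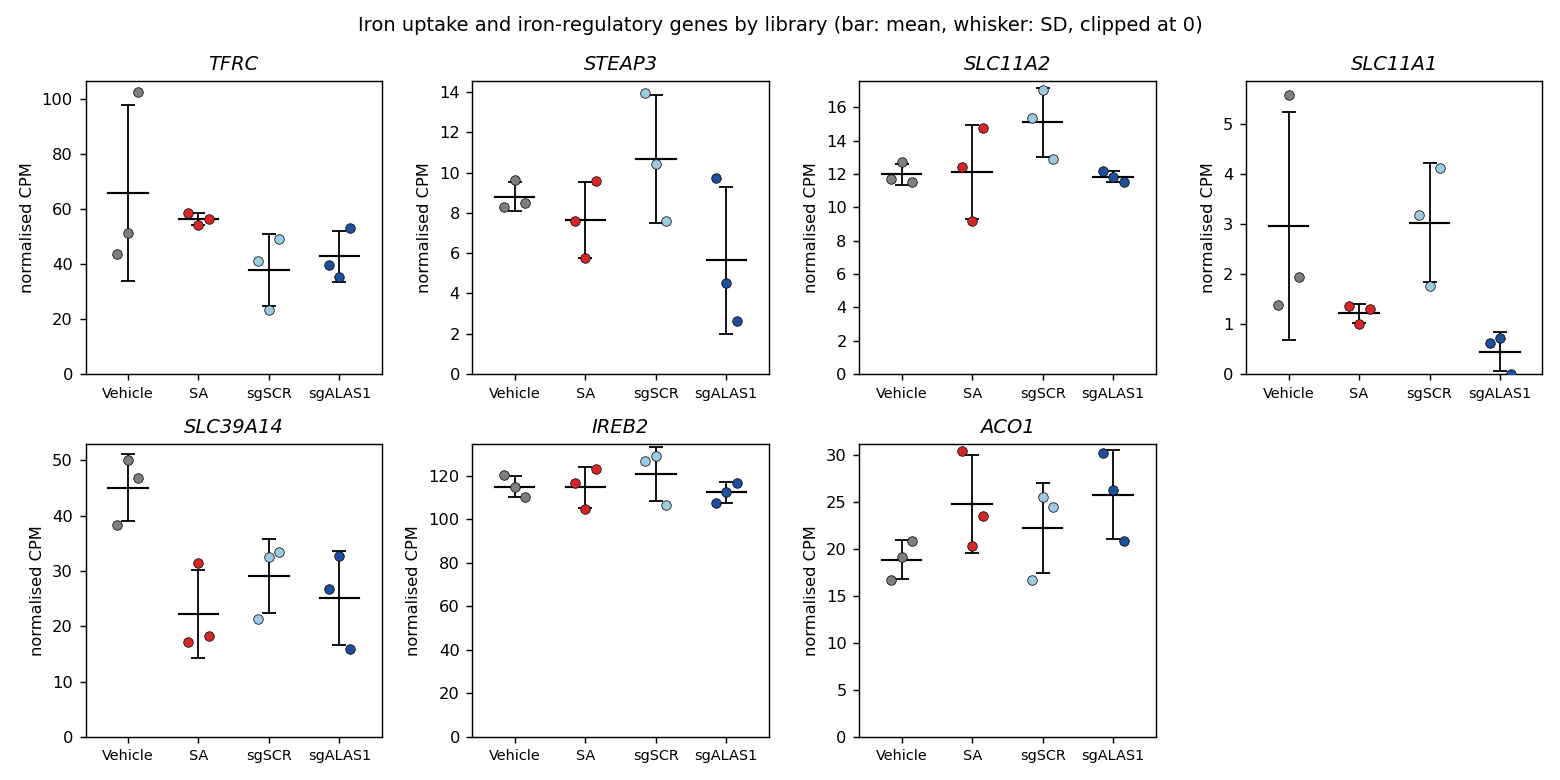
TMM-scaled counts (CPM, linear axes that differ between panels) of the 7 uptake and regulatory genes in the 12 libraries; points are libraries, bars the group mean and whiskers the SD. SLC39A14 is highest in vehicle, SLC11A1 reaches 0 in sgALAS1 replicate 3, TFRC vehicle replicate 3 stands at 102 CPM and IREB2 is level across the groups.

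**Figure D4:**
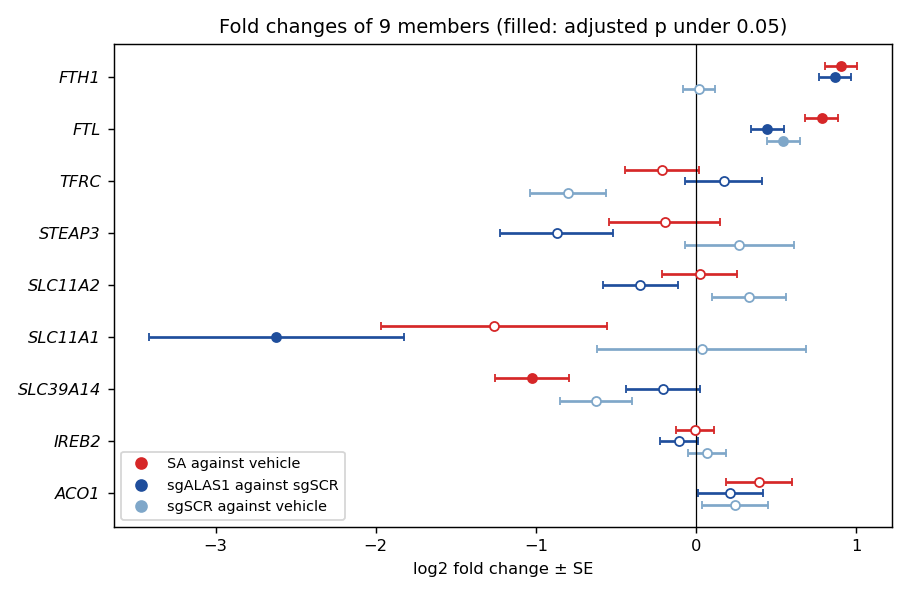
Log2 fold change with its standard error (SE) for the 9 measured genes in SA against vehicle, sgALAS1 against sgSCR and sgSCR against vehicle; filled points have an edgeR adjusted p under 0.05. FTH1 moves by 0.91 and 0.87 in the 2 arms and by 0.02 between the controls, whereas FTL moves by 0.55 between the controls.

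The genes that followed each of the 2 best known members were looked up over the 12 libraries among 9408 genes whose log2 CPM averaged 3 or more, as the root mean square difference of centred log2 CPM. For FTH1, whose own spread on this measure was 0.448, BEST1, whose row holds nearly the same reads, came first at 0.00195. S100A6, a calcium-binding protein, followed at 0.0760, with changes of 0.85 in SA and 0.89 with the guide. An identifier without a name in the tables, ENSG00000163386, came next at 0.126. NCF4, a subunit of the phagocyte NADPH oxidase, lay at 0.128, and BEX1 at 0.142. For TFRC no gene came as near: DDHD1 at 0.263, NACC2 at 0.278, HRAS at 0.295, DNAJA1 at 0.295 and DHX9 at 0.297, against TFRC's own 0.482.

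Other genes of iron handling were read as lists, whose counts stand beside 11.1% of all tested genes called in SA and 11.7% with the guide. Among 6 tested genes of iron uptake and reduction, 0 passed in SA with edgeR (0 with DESeq2, 1 at an unadjusted p under 0.05). With sgALAS1 1 rose: the ferric reductase CYBRD1, from 6.06 ± 1.43 to 12.9 ± 3.96 CPM (SD, n = 3; log2 change 1.09, SE 0.29, edgeR adjusted p = 0.01). In SA its change was 0.44 (edgeR adjusted p = 0.34). The call in the guide arm ended without sgALAS1 replicate 1 or sgSCR replicate 1, with an edgeR adjusted p of up to 0.124. SLC39A8, a close relative of SLC39A14, changed by -0.60 in SA and -0.52 with the guide and did not pass. Among 3 tested genes of iron export and systemic control 0 passed in either arm with edgeR (0 with DESeq2, and 0 in SA and 1 with the guide at an unadjusted p under 0.05), and the exporter SLC40A1 (ferroportin) averaged 1.59 to 3.57 CPM in the 4 groups.

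Of 8 tested genes that control the iron-regulatory proteins or carry an iron-responsive element, 0 passed in SA with edgeR (0 with DESeq2, 1 at an unadjusted p under 0.05) and 3 rose with sgALAS1. FBXL5, the iron-sensing subunit of the ligase that marks IREB2 for degradation, had 46.0, 40.8 and 31.1 CPM with sgSCR and 57.4, 59.6 and 61.2 CPM with sgALAS1. These libraries did not overlap (log2 change 0.60, SE 0.17, edgeR adjusted p = 0.0164). EPAS1 (HIF-2α), whose mRNA carries a known element, rose by 2.09 (SE 0.51) from a low level of 1.39 ± 0.59 CPM (SD, n = 3), and the kinase CDC42BPA rose by 0.63 (SE 0.17). In SA the changes were 0.28 for FBXL5, 1.06 for EPAS1 and -0.04 for CDC42BPA, and the arms were not shown to differ for any of them (edgeR adjusted p for the difference 0.653, 0.606 and 0.215). Calls in the guide arm ended without sgSCR replicate 3 for FBXL5 (highest edgeR adjusted p 0.116), without sgALAS1 replicate 3 for EPAS1 (0.0509) and without sgALAS1 replicate 1 or 2 or sgSCR replicate 1 for CDC42BPA (up to 0.103). Against vehicle EPAS1 and CDC42BPA did not pass with sgALAS1 (1.08 and 0.14).

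Of the cytosolic chaperones that hand iron to ferritin and to enzymes, 0 of 11 tested genes passed in either arm with edgeR (0 with DESeq2, and 4 in SA and 3 with the guide at an unadjusted p under 0.05). PCBP1, the chaperone that loads ferritin, changed by -0.32 in SA (edgeR adjusted p = 0.0889) and by -0.04 with the guide. Of 6 tested genes of mitochondrial iron, 0 passed in either arm with edgeR (0 with DESeq2, and 0 in SA and 1 with the guide at an unadjusted p under 0.05). The importer SLC25A37 (mitoferrin 1) changed by -0.08 in SA and -0.30 with the guide and did not pass. It also lies on chromosome 8, where the median change was -0.25 in SA and -0.34 with the guide.

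Of 7 tested genes that handle heme and the iron in it, the same 4 rose in both arms and 0 fell in either, beside 4.83% of all tested genes that rose in SA and 4.88% with the guide, with list medians of 0.66 and 0.64 beside -0.0095 and -0.0034 for all tested genes. The heme oxygenase HMOX1 had 2.90, 1.69 and 2.30 CPM in vehicle and 21.95, 33.6 and 33.1 CPM in SA. It had 1.59, 1.29 and 1.32 CPM in sgSCR and 6.17, 5.09 and 14.6 CPM in sgALAS1. All treated libraries lay above their controls, and HMOX1 rose by 3.66 (SE 0.35, edgeR adjusted p = 1.76e-08) and 2.58 (SE 0.41, edgeR adjusted p = 3.49e-05).

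The biliverdin reductases BLVRA and BLVRB, which act after heme oxygenase, rose by 1.06 and 0.66 in SA and by 1.30 and 0.95 with the guide. The heme transporter SLC48A1 rose by 0.67 and 0.64. These smaller calls rested on few libraries. In SA the call ended without SA replicate 2 for SLC48A1 (edgeR adjusted p up to 0.0644), without SA replicate 2 or 3 or vehicle replicate 1 or 2 for BLVRA (up to 0.207) and without SA replicate 2 or 3 or vehicle replicate 2 or 3 for BLVRB (up to 0.152). With the guide SLC48A1 lost its call without sgALAS1 replicate 2 (0.0539).

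Ferritin turnover, the delivery of ferritin to lysosomes by autophagy and its release in vesicles, was read from 16 tested genes, of which 3 rose and 1 fell in each arm, beside 4.83% of all tested genes that rose and 6.24% that fell in SA, and 4.88% and 6.85% with the guide. In both arms GABARAPL1, an autophagosome protein, rose (0.91 in SA, 0.70 with the guide), as did CD63, a vesicle protein (0.35 and 0.60). In both arms RB1CC1, a scaffold of the autophagy-starting kinase complex, fell (-0.75 and -0.38). RB1CC1 lies on chromosome 8, whose tested genes had a median change of -0.25 in SA and -0.34 with the guide. Whether RB1CC1 fell beyond its chromosome was not tested. GABARAP, named after its values were seen, rose in SA (0.35), and its change with the guide was 0.30 (edgeR adjusted p = 0.0783). The autophagy receptor SQSTM1 rose with the guide (0.62, SE 0.15), and its change in SA was 0.21 (edgeR adjusted p = 0.393). The arms were not shown to differ for either gene (edgeR adjusted p for the difference 0.945 and 0.422). With DESeq2 4 of the 16 genes passed in SA and 6 with the guide, where 1707 and 1808 of all 13832 tested genes did. Leaving out 1 library ended the calls of GABARAP and CD63 in SA (edgeR adjusted p up to 0.167 and 0.252; without any SA library or vehicle replicate 2 or 3 for GABARAP, and without SA replicate 1 or 2 or any vehicle library for CD63). It ended those of GABARAPL1 and RB1CC1 with the guide (up to 0.175 and 0.166; without any sgALAS1 library or sgSCR replicate 2 or 3 for GABARAPL1, and without sgALAS1 replicate 1 or 3 or sgSCR replicate 1 or 2 for RB1CC1). In SA GABARAPL1 lost its call without vehicle replicate 3 (0.0898).

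NFE2L2 (NRF2) and BACH1 are known to switch ferritin transcription on and off. Of 12 tested regulators and targets, 2 rose and 1 fell in SA, and 2 rose with sgALAS1, beside 11.1% and 11.7% of all tested genes called in either direction. NFE2L2 itself changed by 0.07 in SA and -0.11 with the guide, and BACH1 by -0.28 and 0.16, and neither passed. GCLC, named after its values were seen, lay lower without overlap in both arms (-0.96 and -0.75) but did not pass. The quinone reductase NQO1 had 26.8, 17.3 and 28.7 CPM in vehicle and 114, 123 and 115 CPM in SA. With sgSCR it had 56.2, 46.4 and 49.3 CPM and with sgALAS1 109.7, 122 and 132 CPM. NQO1 rose by 2.27 (SE 0.15) and 1.26 (SE 0.15), and, like FTL, it was higher in sgSCR than in vehicle (1.06, SE 0.16, edgeR adjusted p = 0.000168).

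SRXN1, which repairs oxidised peroxiredoxins and was named after its values were seen, rose in SA by 0.61 (SE 0.16). Its change with the guide was 0.25 (edgeR adjusted p = 0.364), and the arms were not shown to differ (edgeR adjusted p for the difference 0.596). In SA the cystine transporter SLC7A11 fell by 1.501 on the log2 scale (SE 0.33, edgeR adjusted p = 0.00281). It had 41.1, 77.5 and 19.3 CPM in vehicle and 10.5, 20.5 and 17.7 CPM in SA, which overlapped, and without vehicle replicate 2 the change was -0.91 (edgeR adjusted p = 0.094). The call of SRXN1 in SA ended without SA replicate 2 or vehicle replicate 2 (edgeR adjusted p up to 0.116). With sgALAS1 the small MAF protein MAFG rose by 0.42 (SE 0.11), a call that ended without sgALAS1 replicate 1 (0.0502). In SA MAFG changed by 0.18 (edgeR adjusted p = 0.326), and the arms were not shown to differ (edgeR adjusted p for the difference 0.556).

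Several of these smaller calls also depended on which control was used, in comparisons added after seeing the data. Against sgSCR the changes in SA of BLVRA (0.56), BLVRB (0.55), SLC48A1 (0.25), GABARAPL1 (0.31), GABARAP (0.28) and SRXN1 (0.41) did not pass, and that of SLC7A11 was 0.16. Against vehicle the changes in sgALAS1 of CYBRD1 (0.50) and SQSTM1 (0.20) did not pass. HMOX1, NQO1, CD63 and RB1CC1 passed in both arms against either control, and so did FTH1 among the ferritin genes.

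**Figure D5:**
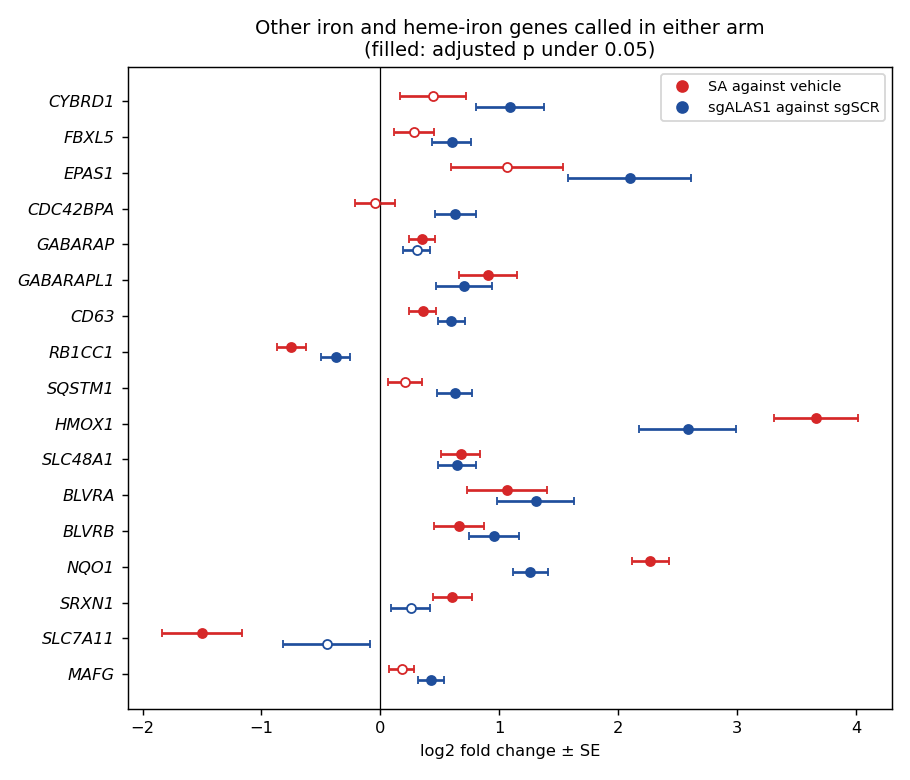
Log2 fold change with its standard error (SE) for the genes of the iron and heme lists that passed the test in at least 1 arm, in SA against vehicle and sgALAS1 against sgSCR; filled points have an edgeR adjusted p under 0.05. HMOX1 lies farthest to the right in both arms, at 3.66 and 2.58, and SLC7A11 in SA lies farthest to the left.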

How the data were processed

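Polyadenylated RNA of 12 OCI-AML3 samples was read by QuantSeq 3′ mRNA sequencing, per the labels' protocols. Per the submitters' processing notes the authors used bcl2fastq 2.17.1.14, cutadapt 1.14, HISAT2 2.0.4 with hg19, featureCounts (Subread 2.0.0), limma 3.48.3 and edgeR 3.34.0. For the annotation, the strand setting and multiply mapped reads, the choice is not given in the sources used. Deposited values are raw counts per Ensembl identifier. Names came from a gene table for 51996 identifiers and from GENCODE 29 for 342, and 5567 had none.

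Counts were fitted in R 4.3.3 with edgeR 4.0.16 (glmQLFit and glmQLFTest, two-sided, TMM scaling, filterByExpr by group), with 13832 identifiers tested and a biological coefficient of variation of 16.4%. The SE is the size of the log2 change over the square root of F. Each arm was compared with its own control, the arms' effects with each other, and sgSCR with vehicle. DESeq2 1.42.0, other scalings and filters, a replicate block, summed identifiers, added pseudogene reads and left-out libraries were alternatives. The fit was tested on simulated data. Element coordinates are GRCh38 (GENCODE 29), not the build of the counts, which carry no coordinates.

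Named genes were the members, ALAS1, up to 4 genes of each list with the smallest p in either arm, the most read ferritin pseudogenes and the 5 nearest genes to FTH1 and TFRC. Members and lists were chosen with earlier results of these data known. A few listed genes are not reported here and were left out of the list counts.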

Additional observations from a re-analysis of the deposited data

Results flagged for a closer look

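Effects of the guide and of SA were compared by the interaction contrast of the edgeR fit for 35 genes. Besides the members these were mostly genes already called in an arm of these data. Of the 35, 3 differed, where 1.19% of all tested genes did. ALAS1 differed by -2.16 (guide effect minus SA effect, log2; edgeR adjusted p = 1.14e-08), as it fell with its guide and rose with SA. NQO1 differed by -1.01 (edgeR adjusted p = 0.00788), with the lower guide effect measured from the higher sgSCR level. S100A9 differed by -1.33 (edgeR adjusted p = 0.0127). FLT3, which was not among the 35, also differed, by -1.42 (edgeR adjusted p = 0.00286). It fell in both arms, and more with the guide.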

How the results depend on the processing

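With 3 libraries a group and at most 33 reads of SLC11A1 in any library, changes of genes read this little were not well resolved. SA against vehicle called 3 of the 9 iron genes under every setting tried with its own control, and 1 (FTH1) against sgSCR. sgALAS1 against sgSCR called 2 to 3 with its own control (2 in a fit of only the groups compared, where SLC11A1 was filtered out) and 4 against vehicle, a control chosen after seeing the data. Over all 13832 tested genes the exchanged controls called 1875 for SA and 2060 with the guide. Each arm's own control called 1531 and 1622. sgSCR against vehicle called 1, 2 without the low-count filter (TFRC joined), and 0 to 2 when a library was left out. The difference between the arms called 0 with edgeR throughout, and 0 with DESeq2. Same-numbered libraries of an arm correlated at -0.0661 to 0.0572 in their deviations and differently numbered ones at -0.152 to 0.109. These pairs are few and cannot show whether a number marks a shared culture or batch. Adding the replicate block raised the calls over all tested genes from 1531 to 1704 for SA and from 1622 to 1796 with the guide. For the difference between the arms they rose from 164 to 227, and for sgSCR against vehicle from 198 to 266. With the replicate block the control comparison called 2, as TFRC passed (-0.78, edgeR adjusted p = 0.0168). The other counts of iron genes were 3, 3 and 0. Among the 35 genes followed through the settings no other call changed, and the other named genes were not looked at. Calls were also lost in SA for BLVRA, CD63 and GABARAP in a fit of only the groups compared, for BLVRB, CD63 and GABARAP without the low-count filter, and with the guide for GABARAPL1 and RB1CC1 without that filter.

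The IREB2 change in SA turned positive with DESeq2 (0.0067), summed identifiers (0.0008049), only the groups compared (0.0065), RLE scaling (0.0066), upper-quartile scaling (0.0031) and without mitochondrial transcripts and the top unnamed identifier (0.013). Against the other control group signs turned for CDC42BPA (0.45), SLC11A2 (-0.31), SLC40A1 (-0.71), SLC7A11 (0.16) and TFRC (0.58) in SA, and for SLC40A1 (1.01) and TFRC (-0.62) with the guide. Leaving out 1 library turned signs within these ranges: in SA CDC42BPA -0.0944 to 0.0395, IREB2 -0.052 to 0.0567, SLC11A2 -0.14 to 0.18, SLC25A37 -0.247 to 0.0183 and TFRC -0.44 to 0.26. With the guide the ranges were PCBP1 -0.122 to 0.0641, SLC39A14 -0.44 to 0.0317, SLC40A1 -0.48 to 0.17 and TFRC -0.075 to 0.414. Between controls they were FTH1 -0.0435 to 0.0472 and SLC11A1 -0.32 to 0.86, and for the difference between the arms FTH1 -0.0722 to 0.0127 and TFRC -0.0896 to 0.626. The cause was not tested.

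Over all tested genes, calls for SA fell from 1531 to 982, 954 and 955 without SA replicate 1, SA replicate 3 or vehicle replicate 2. Calls for the difference moved from 164 to 277 without the low-count filter, 340 without vehicle replicate 1 and 109 without sgSCR replicate 1. Those for sgSCR against vehicle moved from 198 to 300 with DESeq2, 84 without sgSCR replicate 1 and 104 without vehicle replicate 2.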
